A study of Mus musculus with 19 samples.

Results

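Hepatic stellate cells (HSCs) are the vitamin A-storing pericytes of the liver, and on a stiff culture surface they leave their quiescent state and take on the features of matrix-producing myofibroblasts. The change of their transcriptome between 6 h and 18 h of culture was measured in 3 samples at 6 h and 3 samples at 18 h, chosen by the culture time in the labels from 19 samples that ran from fresh isolation (0 h) to 96 h. All 6 samples came from HSCs of healthy male Balb/c mice aged 23 to 24 weeks, which had been sorted for the ultraviolet fluorescence of vitamin A into collagen-coated plates and kept in DMEM with 10% fetal bovine serum (10pctDMEM). No agent, injury or genetic change set the groups apart, and the samples are labelled M1, M2 and M3 at both times. Values of single samples are given in that order. The medium was changed after 3 h, so the 6 h samples were collected sooner after fresh serum than the 18 h samples. Time in culture, time since the medium change and hour of the day cannot be told apart in these samples. The labels do not say what M stands for, a mouse, a pool or an isolation, and they give one isolation date for M1 and M3 and another for M2. The p-values therefore measure only the spread between these samples.

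When cells are torn from a tissue, plated and given serum, a first wave of genes is transcribed within minutes without new protein synthesis. These immediate early genes encode transcription factors such as those of the AP-1, Egr, Nr4a and Kruppel-like families, and with them come inhibitors of the very signals that induced them, the phosphatases of MAP kinases and the proteins that destabilise short-lived mRNAs. In HSCs this first response runs beside the loss of the quiescent genes and precedes the collagens and contractile proteins of the myofibroblast. The comparison of 18 h with 6 h asks how far the first wave had subsided and which genes had replaced it.

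The total per sample was between 3376702 and 5609553 counts, so that 3 counts, taken as the smallest level the depth can show, corresponded to 0.535 to 0.888 CPM (counts per 1000000 counts of the library, with TMM factors throughout). Such floors cover counting error only. Between 11060 and 15189 genes had at least 1 count, with the highest number in M2 at 6 h and the lowest in M2 at 18 h. A single sample could miss a gene that its group expressed: of genes at 20 to 50 CPM in both other samples of a group, between 0.705% and 8.57% had 0 counts in the remaining one. The first principal component of log2 CPM held 37% of the variance and separated the 6 h samples, at -78.9 to -33.5, from the 18 h samples, at 43.2 to 78.3. The mitochondrially encoded genes took 5.03% to 6.22% of counts at 6 h and 3.62% to 4.54% at 18 h.

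The 14 marker genes of HSCs summed to between 20230 and 22100 CPM at 6 h and between 2879 and 3302 CPM at 18 h, and 9 of the 13 tested were lower at 18 h. Gfap, an intermediate filament of quiescent HSCs, had no count in any of the 6 samples. The markers of other liver cells were low: 7 of 13 Kupffer cell markers and 10 of 11 lymphocyte and neutrophil markers were at 0 in all 6 samples, Adgre1, Clec4f and Timd4 among the former. The Kupffer cell markers summed to 37.6 to 60.2 CPM at 6 h and 32.2 to 53.5 CPM at 18 h, and those of cholangiocytes to at most 6.35 CPM. Csf1r, the highest tested marker of the Kupffer cell list, measured 21.6, 31.0 and 20.1 CPM at 6 h. At 18 h Csf1r measured 30.2, 42.2 and 20.3 CPM and was not called (log2 fold change 0.35), and Hmgxb3 overlaps it on the opposite strand. The 12 hepatocyte markers summed to 139.8 to 430.4 CPM at 6 h and 4.03 to 199.7 CPM at 18 h. The 12 markers of sinusoidal endothelium summed to 836 to 1473 CPM at 6 h and 309 to 757 CPM at 18 h. Part of this was Bmp2, with 556, 466 and 595 CPM at 6 h and 175, 121 and 139 CPM at 18 h. Of the defining endothelial markers, Stab2 measured 131, 67.1 and 51.3 CPM at 6 h and 0, 0 and 9.11 CPM at 18 h, whereas Cdh5 measured 109, 49.6 and 58.02 CPM at 6 h and 269, 108 and 100.2 CPM at 18 h. In a bulk sample, fewer cells of a type and less RNA per cell cannot be told apart.

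The genes called lower at 18 h than at 6 h included many of quiescent HSCs, such as Ecm1 and Dcn, and transcription factors of the immediate early families, such as Egr1 and Junb. They also included genes of the inflammatory and interferon responses, such as Vcam1 and Rsad2. The genes called higher were fewer and included the p53 target Cdkn1a, the cyclin Ccnd1 and the matrix genes Tnc and Timp3. Of 10198 genes tested, 462 (4.53%) were called, which means an adjusted p below 0.1 in edgeR's quasi-likelihood test (Benjamini-Hochberg) with a fold change above 2. The calls divided into 340 lower at 18 h (3.33%) and 122 higher at 18 h (1.20%). Of the calls 26.4% were upward under TMM scaling, and 44.8% were upward when libraries were scaled by their totals alone. That scaling also moved the median log2 fold change of all genes from 0.05 to 0.23. When the M number was used as a block (the replicate block), 107 genes were called lower (1.05%) and 15 higher (0.147%), 119 of these 122 being among the 462. With both samples of M2, the only one of its isolation date, left out, 51 genes were called. Leaving out any 1 of the 6 samples gave between 150 and 261 calls. Of the 462 genes, 0 had the opposite sign in any of these fits. The fits reuse the samples on which these genes were chosen, so a kept sign is no separate evidence.

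**Figure D1:**
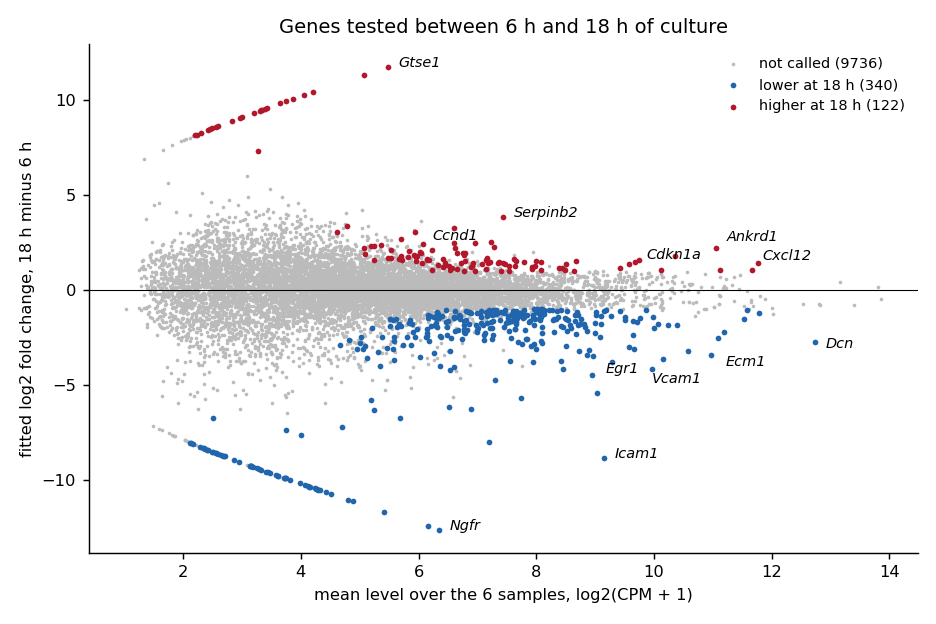
Fitted log2 fold change of each of the 10198 genes tested (vertical axis, 18 h minus 6 h) against its mean level over the 6 samples (horizontal axis, log2 of CPM + 1); blue marks the 340 genes called lower at 18 h and red the 122 called higher. The 2 thin arms are genes with 0 counts in 1 group, whose fitted value depends on the prior count and is not a measured size.

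Most listed early response genes measured less at 18 h than at 6 h, and 17 of them passed the test. Of 84 genes in 4 lists (AP-1 and its ATF and MAF partners, Egr, Nr4a and other immediate early genes, Kruppel-like factors, and EGF ligands with ERK feedback genes), 68 passed the filter on low counts and 9 had no count in the 6 samples. Of the 68, 17 were called lower and 0 higher in edgeR, against 3.33% and 1.20% of all genes tested, and 57 had a log2 fold change below 0. At an unadjusted p below 0.05, 3 of them were higher, and DESeq2 called 2 higher. Their median log2 fold change was -0.85, beside 0.05 for all genes tested. As the lists were written with earlier results of these data known, these counts are not independent evidence of a fall. With the replicate block 6 remained called, and with M2 left out 2 were called. In each of the 17, every sample at 18 h was below every sample at 6 h, as the plot of these genes by sample shows. The 17 were called on these same samples, so their separation is no added evidence. Of the 68, 33 had such separate groups with the lower values at 18 h and 4 with the higher values at 18 h, against 14.4% and 13.6% of all genes tested.

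**Figure D2:**
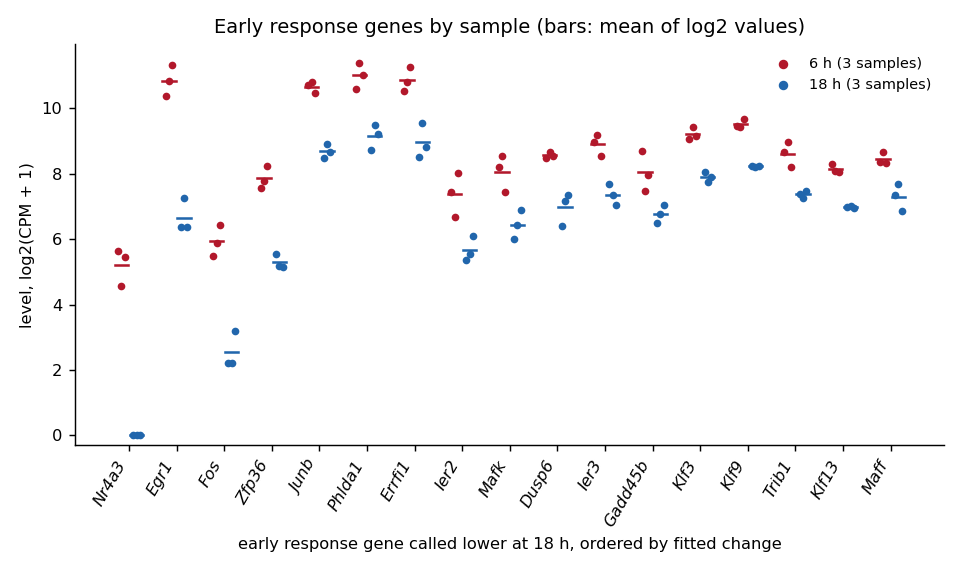
Level of the 17 early response genes called lower at 18 h, as log2 of CPM + 1 (vertical axis), in the 3 samples at 6 h (red) and the 3 samples at 18 h (blue); bars are means of the log2 values. Nr4a3 was at 0 CPM in each sample at 18 h, and for every gene the blue points lie below the red ones.

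To show the control regions of genes that fell together, the promoters of 4 called early response genes were read from RefSeq (GRCm38.p6, the 250 bases before the annotated start). They were taken in order of their fall from those that averaged 20 CPM or more and had an entry in the promoter table, and Egr1, which fell more than any of them, is not shown. They were searched on both strands for the CArG box bound by serum response factor, for the cyclic AMP response element TGACGTCA and for the AP-1 site TGACTCA, none of which contains another. Zfp36 held the single match, a CArG box at -58 to -49 from the start, and Fos, Junb and Errfi1 held none of the motifs in these windows. Of 32851 mouse promoters of this length, 1.47% held a CArG box, 1.55% TGACGTCA and 4.46% TGACTCA. A missing match says only that these letters are not in the window, and a match is not a measured binding site. The promoters of the gene with the match and of Fos, which had the largest fall of the 4, are printed 5′ to 3′ on the strand of the gene, with the CArG box in capitals. They lie at chr7:28379229-28379478 on the minus strand for Zfp36 and at chr12:85473640-85473889 on the plus strand for Fos.
Zfp36: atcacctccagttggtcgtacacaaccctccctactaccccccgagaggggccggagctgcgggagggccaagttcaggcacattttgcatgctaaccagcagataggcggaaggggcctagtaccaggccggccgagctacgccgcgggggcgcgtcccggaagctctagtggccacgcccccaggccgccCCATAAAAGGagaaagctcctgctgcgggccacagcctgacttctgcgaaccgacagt
Fos: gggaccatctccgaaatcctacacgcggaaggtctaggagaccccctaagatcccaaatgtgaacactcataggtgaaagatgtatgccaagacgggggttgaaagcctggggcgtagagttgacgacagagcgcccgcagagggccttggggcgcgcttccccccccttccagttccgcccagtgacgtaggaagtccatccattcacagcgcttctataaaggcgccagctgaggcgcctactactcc

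Among the AP-1 genes and their partners, 4 of 11 tested (36.4%) were lower at 18 h, against 3.33% of all genes. All 11 had a log2 fold change below 0, with a median of -1.34. Fos, the AP-1 subunit of the first minutes of a serum response, measured 43.5, 57.98 and 85.9 CPM at 6 h and 3.65, 3.68 and 8.18 CPM at 18 h. The groups did not overlap, and the log2 fold change was -3.59 (SE 0.60) with an edgeR adjusted p of 0.0347, and of 0.119 with the replicate block. Its mean had been 2734 CPM at 0 h and 278 CPM at 3 h, and most of its decline in mean level thus preceded 6 h. Junb, another partner of Fos, had been at 3907 and 3135 CPM at 0 h. It measured 1688, 1763 and 1424 CPM at 6 h and 358, 479 and 405 CPM at 18 h. It fell by 1.97 on the log2 scale (SE 0.18, edgeR adjusted p = 0.00569) and was called in every alternative fit that tested it. It shares its locus with Prdx2 on the opposite strand, and the strand setting of the counting is not given in the sources used here. Jun, the partner of Fos in the classical AP-1 dimer, measured 594, 638 and 767 CPM at 6 h and 368, 420.5 and 546 CPM at 18 h, again without overlap, but the log2 fold change of -0.58 (SE 0.20) was not called (edgeR adjusted p = 0.215). The small MAF proteins Maff and Mafk, which lack an activation domain and pair with AP-1 and CNC factors, were lower with log2 fold changes of -1.12 and -1.65, and both lost the call with the block (edgeR adjusted p = 0.122 and 0.224). Fosb, Fosl2 and Atf3, which did not pass the test, had log2 fold changes of -3.41, -0.61 and -1.34.

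In the list of Egr, Nr4a and other immediate early genes, 7 of 29 tested (24.1%) were lower, against 3.33% of all genes. The log2 fold change was below 0 in 26 of the 29, with a median of -0.82. Egr1, a zinc finger factor induced through serum response elements, measured 1331, 1819 and 2541 CPM at 6 h and 81.3, 152 and 81.1 CPM at 18 h. All 18 h samples were far below the lowest 6 h sample, and the log2 fold change was -4.18 (SE 0.38, edgeR adjusted p = 0.00543, 0.0425 with the block). Unlike Fos, Egr1 had stayed high from 0 h, with means of 1649, 1316 and 1897 CPM at 0, 3 and 6 h, and then declined to 512 CPM at 12 h, 105 CPM at 18 h and 60.8 CPM at 24 h. Nr4a3, an orphan nuclear receptor, measured 48.9, 22.4 and 42.9 CPM at 6 h and 0 CPM in each sample at 18 h. It was at least 63.0-fold lower against a floor of 3 counts per sample (edgeR adjusted p = 0.0307, 0.224 with the block). This bound and those below cover counting error only, and not genes that a sample missed for other reasons. Its relative Nr4a2 lay the other way, with 4.44, 10.3 and 9.30 CPM at 6 h and 35.5, 34.3 and 41.5 CPM at 18 h, and was the only gene of the list whose 18 h samples all exceeded its 6 h samples, although the rise was not called (edgeR adjusted p = 0.137).

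Zfp36 encodes tristetraprolin, which binds AU-rich elements and hastens the decay of mRNAs such as those of cytokines, and is itself an immediate early gene. It measured 188, 219 and 303 CPM at 6 h and 45.3, 35.4 and 34.6 CPM at 18 h. The change was -2.62 (SE 0.26) on the log2 scale (edgeR adjusted p = 0.00788, 0.0717 with the block), while its family members Zfp36l1 and Zfp36l2 had values of -0.60 and 0.00 and were not called. Ier2, Ier3 and Gadd45b, small stress response proteins, were lower with log2 fold changes of -1.81, -1.54 and -1.35. Of these, Ier3 kept the call with the block (edgeR adjusted p = 0.0805), whereas Ier2 (0.124) and Gadd45b (0.255) did not. Trib1, a pseudokinase that was outside the naming rule and completes the called members, changed by -1.26. Several members of the list had fold changes near 0 or did not pass the test. Myc measured 286, 110.4 and 322 CPM at 6 h and 162, 362 and 184 CPM at 18 h, and Rhob, Btg1, Sik1 and Mcl1 had log2 fold changes between -0.26 and -0.05. Plk2, a kinase induced by serum, measured 1284, 1140.3 and 1836 CPM at 6 h and 629, 879.8 and 791 CPM at 18 h and did not pass the test (-0.89 on the log2 scale, edgeR adjusted p = 0.113).

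Of the Kruppel-like factors, 3 of 12 tested were lower and 10 had a log2 fold change below 0 (median -0.66). Klf9, a factor responsive to glucocorticoids and oxidative stress, measured 708, 683 and 813 CPM at 6 h and 301, 296 and 299 CPM at 18 h. Its 18 h samples differed by only a few CPM, and the log2 fold change was -1.30 (SE 0.15, edgeR adjusted p = 0.0140, 0.0805 with the block). Klf3, a repressor, and Klf13 were lower by similar amounts, -1.31 (SE 0.17) and -1.17 (SE 0.17), with edgeR adjusted p of 0.0216 and 0.0239, which the block raised to 0.106 and 0.105. Klf6, which the study names among initiation genes, measured 1952, 1540.0 and 2449.9 CPM at 6 h and 1026, 1481 and 1219.6 CPM at 18 h. The groups did not overlap, but the log2 fold change of -0.67 (SE 0.23) was not called (edgeR adjusted p = 0.205). Klf2 and Klf4, which are known from endothelium, had values of -0.09 and 0.74 and were not called.

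Of the EGF ligands and ERK feedback genes, 3 fell, each of them induced by growth factor signalling. Of 16 tested, these 3 were the called members (18.8%, against 3.33% of all genes called lower). The log2 fold change was below 0 in 10 of the 16, with a median of -0.57. Errfi1 encodes Mig6, an inhibitor of the EGF receptor, and measured 1477, 1787 and 2432 CPM at 6 h and 364, 751 and 453 CPM at 18 h. No sample overlapped, and the log2 fold change was -1.86 (SE 0.33, edgeR adjusted p = 0.0400, 0.105 with the block). Dusp6, the cytoplasmic phosphatase of ERK, measured 355, 400.5 and 371 CPM at 6 h and 83.96, 141 and 160.1 CPM at 18 h, a log2 fold change of -1.55 (SE 0.26) with an edgeR adjusted p of 0.0357, or 0.105 with the block. Phlda1, a pleckstrin homology protein, fell from 1537, 2687 and 2084 CPM to 419.8, 717 and 594 CPM (edgeR adjusted p = 0.0288, 0.0439 with the block). Among the ligands, Ereg measured 493, 531 and 552 CPM at 6 h and 479, 539 and 657 CPM at 18 h. Hbegf measured 66.9, 71.3 and 176 CPM at 6 h and 128, 116 and 141 CPM at 18 h. Their log2 fold changes of 0.09 and 0.30 were not called.

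The lists rest on general knowledge of the response, and the early genes of these cultures were therefore also taken from samples that the comparison does not use, though they carry the same M numbers. In a separate edgeR fit of 3 samples at 3 h against 2 at 0 h, 646 of 11838 genes (5.46%) were called higher at 3 h. Of these, 611 were tested between 6 h and 18 h, where 94 (15.4%) were called lower and 2 (0.327%) higher, and 476 had a log2 fold change below 0. Their median log2 fold change was -0.63, beside 0.05 for all genes tested. With the replicate block, 35 were called lower. Read from the other side, 28.1% of the genes called lower at 18 h and tested at 3 h had been called higher at 3 h, compared with 1.85% of the genes called higher at 18 h and 6.38% of all genes tested in both fits. The 2 early genes that were higher at 18 h, named after their values were seen, were Cdkn1a, the cyclin-dependent kinase inhibitor p21, and Mad1l1, a spindle checkpoint protein. Mad1l1 had a fitted log2 fold change of 9.55 (edgeR adjusted p = 0.0566). The fit also gave changes of this size to genes at or near 0 counts in a group, so it is not read as a measured size. The 2 sets of early genes overlap only in part. Of the early response genes called lower at 18 h, Errfi1, Gadd45b, Ier3, Maff, Mafk, Nr4a3 and Trib1 had been called higher at 3 h. Others, such as Egr1, Fos, Junb and Zfp36, had not been called higher at 3 h. The plot of cumulative change shows the early genes and the listed early response genes shifted to the left of all genes over most of the range.

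**Figure D3:**
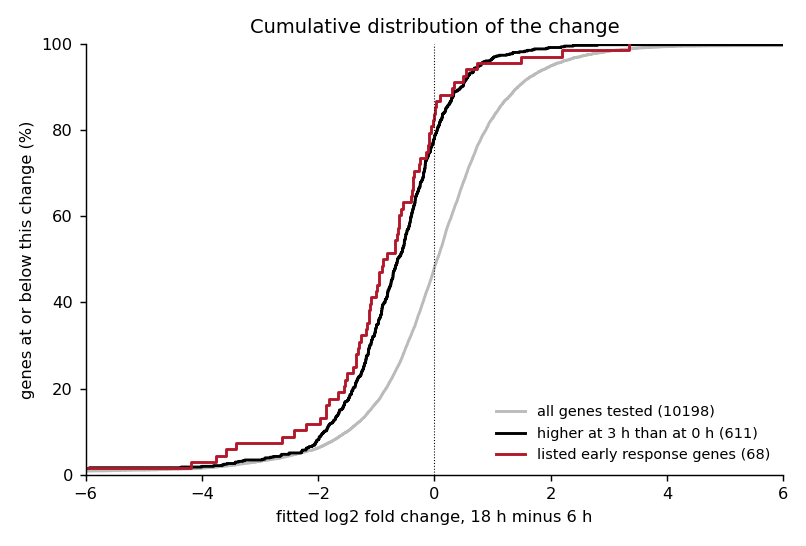
Cumulative share of genes (vertical axis, %) at or below a fitted log2 fold change between 6 h and 18 h (horizontal axis) for all 10198 genes tested (grey), the 611 genes that had been higher at 3 h than at 0 h (black) and the 68 listed early response genes tested (red). Of the 611 genes, 476 lie below 0, and the 2 curves of early genes run to the left of the grey one up to a change of about 2 units.

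Genes of quiescent HSCs made up the pathway list with the most lower calls. Of 35 listed, 30 were tested, and 17 were called lower (56.7%) and 1 higher (3.33%), against 3.33% and 1.20% of all genes. The median log2 fold change was -2.69, the lowest of the lists used here. With the replicate block 12 were called lower. Cxcl12, a chemokine of perivascular cells, was the single member called higher. This list and the HSC markers share members, and the genes were listed with knowledge of HSC cultures.

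Rgs5, a pericyte regulator of G protein signalling, measured 3165, 2719 and 2416 CPM at 6 h and 296, 272 and 324 CPM at 18 h. Ecm1, a secreted protein that restrains the activation of latent TGF-beta in the liver, measured 3431, 4598 and 2974 CPM at 6 h and 311, 328 and 379 CPM at 18 h. In both genes the groups were far apart and narrow, with log2 fold changes of -3.22 (SE 0.18) and -3.43 (SE 0.23, edgeR adjusted p = 0.00144 and 0.00159, 0.0261 and 0.0367 with the block). Colec10, a collectin that HSCs secrete, measured 305, 309 and 292 CPM at 6 h and 12.4, 8.23 and 13.2 CPM at 18 h, and Steap4, a metalloreductase, measured 1115, 795 and 902 CPM at 6 h and 64.2, 30.7 and 33.1 CPM at 18 h. Their log2 fold changes were -4.74 (SE 0.26) and -4.46 (SE 0.36), and both were called in every alternative fit, as were Rgs5, Ecm1, Colec11 and the neuronal adhesion gene Ntm.

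Ntm, which the study uses as a quiescence marker, measured 467, 457 and 512 CPM at 6 h and 51.1, 85.5 and 67.9 CPM at 18 h and changed by -2.81 (SE 0.23, edgeR adjusted p = 0.00320). Ngfr, the low affinity nerve growth factor receptor p75, measured 131, 267 and 82.5 CPM at 6 h and 0 CPM in each sample at 18 h. Against the floor of 3 counts per sample it was at least 265-fold lower at 18 h (edgeR adjusted p = 0.0146, 0.0805 with the block). It had 0 CPM at 24 h and at 96 h as well. Lrat, the enzyme that forms the retinyl esters of the lipid droplets, measured 85.9, 68.9 and 56.6 CPM at 6 h and 8.03, 8.41 and 5.21 CPM at 18 h after a mean of 903 CPM at 0 h. Its log2 fold change of -3.28 (SE 0.45) had an edgeR adjusted p of 0.0226, or 0.109 with the block. Other genes of the cell type did not pass the test: the transcription factors Lhx2 and Gata4 had log2 fold changes of -0.29 and -0.96, and the receptors Pdgfra and Pdgfrb of -0.09 and -0.39. Cxcl12 measured 1832, 2297 and 2273 CPM at 6 h and 3769, 4178 and 5101 CPM at 18 h, a log2 fold change of 1.03 (SE 0.19) with an edgeR adjusted p of 0.0470, or 0.150 with the block.

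Genes of the NF-kB list had negative fold changes throughout, and the adhesion molecules Vcam1 and Icam1 were among those that fell. NF-kB factors are held in the cytoplasm by inhibitors that are themselves NF-kB targets, and they induce adhesion molecules and chemokines that draw leukocytes. Of 17 genes of NF-kB subunits, inhibitors and classical targets that were tested, 4 (23.5%) were called, each lower, against 3.33% of all genes. All 17 had a log2 fold change below 0, with a median of -1.24. With the block 1 was called, Vcam1.

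Vcam1, the ligand of integrin alpha4 on leukocytes, measured 2188, 2282 and 1833 CPM at 6 h and 132, 154 and 215 CPM at 18 h. The log2 fold change was -3.65 (SE 0.24, edgeR adjusted p = 0.00159, 0.0367 with the block), and the gene lies at chr3:116109949-116129688 (GRCm38). Icam1, the ligand of the beta2 integrins, measured 1152, 1086 and 1145 CPM at 6 h and 8.03, 0 and 0 CPM at 18 h. The 3 samples at 6 h lay close together, and at 18 h there were 33 counts in 1 sample and 0 in the others. The log2 fold change was -8.86 (SE 1.34, edgeR adjusted p = 0.0288, 0.105 with the block). At 12 h its mean was already 2.61 CPM, after 2409 CPM at 3 h, and at 24 h it was 67.7 CPM. Nfkbiz and Tnip1, a nuclear cofactor and an inhibitor of the pathway, were lower, with log2 fold changes of -1.36 and -1.25 (edgeR adjusted p with the block 0.177 and 0.109). Nfkbia, the inhibitor IkBalpha, measured 3340.2, 2569.7 and 1641 CPM at 6 h and 1607, 1383 and 764 CPM at 18 h and was not called (edgeR adjusted p = 0.219).

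Among chemokines and cytokines, 5 of 19 tested (26.3%) were lower and 1, Cxcl12, was higher (5.26%), against 3.33% and 1.20% of all genes. The list median of the log2 fold change was -0.72. Cxcl16, the ligand of CXCR6, measured 705, 736 and 645 CPM at 6 h and 249.7, 158 and 197 CPM at 18 h, with a log2 fold change of -1.79 (SE 0.21, edgeR adjusted p = 0.0146, 0.0723 with the block). Il33, an alarmin of the nucleus, measured 237, 206 and 177 CPM at 6 h and 55.5, 28.6 and 50.02 CPM at 18 h and changed by -2.21 (SE 0.30, edgeR adjusted p = 0.0226, 0.0867 with the block). Cxcl9, Cxcl10 and Ccl5, chemokines that interferons induce, were lower too: Cxcl10 changed by -2.54 (SE 0.46), while Cxcl9 and Ccl5 had 0 counts in each 18 h sample and were at least 94.6-fold and 37.3-fold lower. None of these 3 kept its call with the block (edgeR adjusted p = 0.135, 0.171 and 0.298). Ccl2 and Cxcl1, which attract monocytes and neutrophils, did not pass the test (edgeR adjusted p = 0.224 and 0.161). Ccl2 measured 5205, 3775 and 7188 CPM at 6 h and 3889, 2589.6 and 1875 CPM at 18 h. Cxcl1 measured 6808, 3134 and 7569.5 CPM at 6 h and 3395, 1936 and 2023 CPM at 18 h, and the groups of both overlapped.

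Of the interferon-stimulated and antigen presentation genes, 9 fell, among them Irf1, Rsad2 and the class I genes H2-D1 and H2-K1. Interferons induce genes that block viral replication and the class I MHC molecules that present peptides. Of 25 tested, 9 (36.0%) were called, each lower, against 3.33% of all genes. The log2 fold change was below 0 in 23 of the 25, with a median of -2.04. With the block 3 were called. The summed Kupffer cell and hepatocyte markers overlapped between the groups. The summed endothelial markers, Bmp2 included, were lower at 18 h without overlap. Of 9 endothelial markers tested, 7 had a log2 fold change below 0 (median of the 9, -0.86) and 1, Bmp2, was called lower. Cdh5 had a log2 fold change of 1.14 and was not called. The part of other cells in this list was not tested.

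H2-D1, a class I heavy chain, measured 5045, 4332 and 3733 CPM at 6 h and 1395, 1625 and 1541 CPM at 18 h. H2-K1, another, measured 1879.8, 1232 and 1344 CPM at 6 h and 523, 603 and 512 CPM at 18 h. In both genes the groups were well separated, with log2 fold changes of -1.52 and -1.44 and edgeR adjusted p of 0.0146 and 0.0251, but the genes are close copies in sequence and reads between them may be split uncertainly. B2m, the light chain, measured 4126, 3698 and 4723 CPM at 6 h and 2068, 2273 and 1998 CPM at 18 h and missed the fold limit at -0.98 (SE 0.17, edgeR adjusted p = 0.0359). Irf1, the transcription factor behind the interferon gamma response, measured 201.4, 123.1 and 197 CPM at 6 h and 48.4, 42.6 and 35.9 CPM at 18 h (log2 fold change -2.04). Rsad2, the antiviral enzyme viperin, measured 115, 80.2 and 27.001 CPM at 6 h and 6.08, 5.96 and 1.86 CPM at 18 h. Isg15, a ubiquitin-like modifier, measured 248.8, 175 and 106 CPM at 6 h and 27.01, 33.6 and 55.6 CPM at 18 h. Their log2 fold changes were -4.00 (SE 0.77) and -2.19 (SE 0.42), with edgeR adjusted p of 0.0519 and 0.0504, and of 0.0870 and 0.204 with the block. Oasl1, Mx2 and the immunoproteasome subunit Psmb9 had 0 counts in all 18 h samples and were at least 71.8-fold, 32.5-fold and 28.4-fold lower. These 3 lost the call with the block (edgeR adjusted p = 0.203, 0.317 and 0.341), and Psmb9 overlaps Tap1 on the opposite strand. The guanylate binding proteins Gbp2 and Gbp5 belong to a family of similar copies: Gbp2 measured 239, 171 and 126 CPM at 6 h and 8.03, 0 and 0 CPM at 18 h, and Gbp5 was at least 89.3-fold lower, neither of them called with the block (edgeR adjusted p = 0.170 and 0.179).

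Several receptors and kinases of the gp130 pathway fell. Cytokines such as oncostatin M and interleukin 6 signal through gp130, the kinases JAK1 and JAK2 and the factor STAT3, which induces C/EBP factors and SOCS inhibitors. Of 16 tested, 7 (43.8%) were called, each lower, against 3.33% of all genes, and the median log2 fold change was -1.23. Jak1 measured 908, 897 and 851 CPM at 6 h and 326, 427 and 284 CPM at 18 h. Jak2 measured 216, 295 and 314 CPM at 6 h and 68.6, 93.6 and 55.2 CPM at 18 h. The groups did not overlap in either gene, and the log2 fold changes were -1.36 (SE 0.19) and -1.92 (SE 0.27, edgeR adjusted p = 0.0240 and 0.0229, 0.0885 and 0.0920 with the block). Osmr and Lifr, the receptors for oncostatin M and leukemia inhibitory factor, were lower, with log2 fold changes of -1.22 and -1.63, as was Stat3 (-1.45), which overlaps Stat5a on the opposite strand. These 3 lost the call with the block (edgeR adjusted p = 0.236, 0.158 and 0.173). Cebpd measured 1162, 609 and 973 CPM at 6 h and 259, 62.7 and 178 CPM at 18 h and kept its call with the block (log2 fold change -2.46, SE 0.52, edgeR adjusted p = 0.0690, 0.0694 with the block). The shared subunit Il6st itself had a log2 fold change of -0.39 and was not called. In the TNF receptor superfamily, 2 of 13 tested were lower (median -0.79), Ngfr and Tnfrsf21, also called death receptor 6. Tnfrsf21 measured 327, 356 and 223 CPM at 6 h and 53.1, 90.1 and 58.2 CPM at 18 h, a log2 fold change of -2.17 (SE 0.30, edgeR adjusted p = 0.0224, 0.0694 with the block).

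More matrix genes were called lower than higher at 18 h. Quiescent HSCs already make collagen III, decorin and lumican, and culture adds collagen I, tenascin and cross-linking enzymes later. Of 32 collagen and matrix genes tested, 7 were called lower (21.9%) and 1 higher (3.12%), against 3.33% and 1.20% of all genes. The median log2 fold change of the list was -0.93. With the block 6 genes of the list were called lower and 1 higher. Dcn, the proteoglycan decorin, measured 12314, 11599 and 11678 CPM at 6 h and 2076, 1523 and 1677 CPM at 18 h. Its log2 fold change of -2.75 (SE 0.19) was called in every alternative fit (edgeR adjusted p = 0.00174). Col3a1, the main fibrillar collagen of reticular fibres, measured 687, 532 and 1064 CPM at 6 h and 61.6, 82.5 and 105 CPM at 18 h. Col14a1, a fibril-associated collagen, measured 1116, 1523 and 1436 CPM at 6 h and 130.2, 187 and 194 CPM at 18 h. The log2 fold changes were -3.20 (SE 0.34) and -2.99 (SE 0.23), with edgeR adjusted p of 0.00896 and 0.00280. Lum, the proteoglycan lumican, was lower (-4.05 on the log2 scale), and Col6a1 and Col5a3 fell to 15 counts and 0 counts in the 18 h samples together, though neither was called with the block (edgeR adjusted p = 0.162 and 0.346).

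Col1a1, the collagen of scar tissue, measured 139, 133 and 158 CPM at 6 h and 109.8, 138 and 163 CPM at 18 h. The groups overlapped, and the log2 fold change of -0.07 (SE 0.22) was not called (edgeR adjusted p = 0.935) and turned to 0.11 when libraries were scaled by their totals. Its mean reached 1409 CPM only at 96 h. Tnc, the wound matrix protein tenascin C, measured 395, 577 and 781 CPM at 6 h and 1307, 2329.8 and 2429 CPM at 18 h, a log2 fold change of 1.79 (SE 0.34, edgeR adjusted p = 0.0489, 0.0583 with the block). Adamts4, a protease that cleaves proteoglycans, measured 224, 314 and 338 CPM at 6 h and 0.973, 0.701 and 1.67 CPM at 18 h, and its log2 fold change of -8.00 (SE 0.40) was called in every alternative fit, although a gene on the opposite strand overlaps it. Of the metalloproteinases and their inhibitors, Mmp14 was lower (-1.63, edgeR adjusted p = 0.122 with the block) and Timp3 was higher, with 1585, 2057 and 2022 CPM at 6 h and 3525, 5684 and 6153 CPM at 18 h. Timp3 lies within the antisense gene Syn3, and its log2 fold change was 1.44 (SE 0.25, edgeR adjusted p = 0.0401, 0.0957 with the block). Of 17 collagen cross-linking and hydroxylation genes tested, 0 were called in edgeR and 0 in DESeq2, and 1 had an unadjusted p below 0.05, with a median of -0.07. Lox, at 2.92 to 19.3 CPM in the 6 samples, had a log2 fold change of 0.45 (SE 1.10).

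In the TGF-beta and BMP list, 3 of 28 tested (10.7%) were called, each lower, against 3.33% of all genes (list median -0.97). Tgfbi, a secreted TGF-beta-induced adhesion protein, measured 895, 886 and 955 CPM at 6 h and 60.8, 84.8 and 96.9 CPM at 18 h, with a log2 fold change of -3.50 (SE 0.22, edgeR adjusted p = 0.00151, 0.0257 with the block). Bmp2 changed by -1.89 (SE 0.21, edgeR adjusted p = 0.00995), and Id3, a target of BMP receptors and inhibitor of basic helix-loop-helix factors, measured 632, 568 and 591 CPM at 6 h and 193, 114 and 92.04 CPM at 18 h. All 3 were also lower with the block. Among integrins, which bind matrix, 3 of 10 tested were lower: Itga1, a collagen receptor, measured 525, 589.9 and 671 CPM at 6 h and 178, 104 and 215 CPM at 18 h. Itga8 measured 97.5, 54.6 and 149 CPM at 6 h and 0, 1.93 and 0.744 CPM at 18 h, and Itga2b was at least 52.4-fold lower. Itga1 kept its call with the block (edgeR adjusted p = 0.0911), and Itga8 (0.150) and Itga2b (0.248) did not. Itgb1, the common beta subunit, measured 1852, 1492 and 1717 CPM at 6 h and 1526, 2264 and 1801 CPM at 18 h and was not called (log2 fold change 0.14).

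Some targets of p53 were among the genes called higher. The factor p53 halts the cell cycle after damage or stress and induces the inhibitor p21 and its own antagonist Mdm2. Of 20 p53 targets and cyclin kinase inhibitors tested, 5 were called, each higher, against 1.20% of all genes, and the median log2 fold change was 0.69, with 7 of the 20 below 0. With the block, 1 was called, and DESeq2 called 5 higher and 1 lower. Cdkn1a, which encodes p21, measured 462, 541 and 311 CPM at 6 h and 1203, 1058 and 1356 CPM at 18 h. Every 18 h sample was above every 6 h sample, and the log2 fold change was 1.46 (SE 0.24, edgeR adjusted p = 0.0336, 0.153 with the block). Ccng1, cyclin G1, measured 48.9, 27.8 and 26.6 CPM at 6 h and 188, 149 and 142 CPM at 18 h, and changed by 2.21 (SE 0.32, edgeR adjusted p = 0.0254, 0.0717 with the block). Phlda3, an inhibitor of AKT, measured 14.5, 17.9 and 6.39 CPM at 6 h and 124, 94.6 and 103 CPM at 18 h. Zmat3, an RNA-binding protein, measured 65.2, 42.5 and 45.97 CPM at 6 h and 119.7, 118 and 113 CPM at 18 h. The log2 fold changes were 3.06 (SE 0.46) and 1.19 (SE 0.26), and neither kept its call with the block (edgeR adjusted p = 0.109 and 0.198). Gtse1, a microtubule-bound protein that acts in G2 and moves p53 out of the nucleus, measured 0 CPM in each sample at 6 h and 86.2, 109.8 and 65.1 CPM at 18 h, at least 129-fold higher (edgeR adjusted p = 0.00850, 0.122 with the block). Of the 20 genes, 11 had no overlap between the groups with the higher values at 18 h and 3 with the lower values, against 13.6% and 14.4% of all genes tested.

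Of the genes of DNA replication and mitosis, 11 of 36 had no count and 15 were tested. Of the 15, 2 were called higher (13.3%, against 1.20% of all genes). Ccnd1, the growth factor-dependent cyclin D1, measured 53.02, 35.1 and 72.97 CPM at 6 h and 179.8, 283 and 298 CPM at 18 h. Cdk4, its kinase, measured 70.5, 63.5 and 40.1 CPM at 6 h and 131, 136 and 120.3 CPM at 18 h. Their log2 fold changes were 2.24 (SE 0.34) and 1.15 (SE 0.28, edgeR adjusted p = 0.0288 and 0.0913, 0.0957 and 0.197 with the block). Ccnd1 overlaps LTO1 and Cdk4 overlaps Tspan31 on the opposite strand. Mki67, a marker of cycling cells, had at most 2.38 CPM in any sample, and the mitotic genes Ccnb1, Plk1 and Aurkb were not detectable at this depth. Mcm2, a subunit of the replicative helicase, measured 4.15, 13.7 and 0 CPM at 6 h and 55.5, 67.98 and 50.02 CPM at 18 h and was not called (edgeR adjusted p = 0.317).

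Of the targets of YAP and TEAD, which respond to cell spreading on stiff surfaces, 1 of 22 tested was higher and 1 lower, with a median log2 fold change of -0.09 that turned to 0.09 when libraries were scaled by their totals. Each call was 4.55% of the genes tested, against 1.20% of all genes called higher and 3.33% called lower. Ankrd1, a titin-binding ankyrin repeat protein, measured 442, 631 and 1189 CPM at 6 h and 3011, 3483 and 4016 CPM at 18 h, a log2 fold change of 2.22 (SE 0.38, edgeR adjusted p = 0.0357, 0.0717 with the block). Ccn1, a matricellular protein, measured 2198, 2435 and 2757 CPM at 6 h and 1544, 2287 and 2123 CPM at 18 h. Its relative Ccn2 measured 8367, 6853 and 8240.0 CPM at 6 h and 8383, 13361 and 9749.7 CPM at 18 h, and neither was called (log2 fold change -0.31 and 0.42). Asap1, an ARF GTPase activator, was the member called lower (-1.40, edgeR adjusted p = 0.105 with the block). Actn1, which cross-links actin in stress fibres, was the single contractile gene of 28 tested that was higher, with 1398, 1478 and 1513 CPM at 6 h and 2261, 3677 and 3100.2 CPM at 18 h (edgeR adjusted p = 0.0584, 0.170 with the block). Acta2, smooth muscle actin, measured 78.5, 105 and 126 CPM at 6 h and 149, 92.3 and 196 CPM at 18 h and was not called (log2 fold change 0.50, SE 0.33), with a mean of 3164 CPM at 96 h. Serpinb2, the inhibitor of plasminogen activators PAI-2, measured 29.03, 21.05 and 18.1 CPM at 6 h and 304, 280.3 and 376 CPM at 18 h. This was a log2 fold change of 3.82 (SE 0.27, edgeR adjusted p = 0.00174, 0.0367 with the block) and was called in every alternative fit, with the related Serpinb10 overlapping on the same strand.

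The study defined a fibrogenic aHSC program and an initiatory aHSC program. It chose the latter with the help of the 6 h and 12 h samples of these cultures, and its members are not independent evidence of a direction. Of 106 fibrogenic genes tested, 8 were called higher (7.55%) and 4 lower (3.77%), against 1.20% and 3.33% of all genes, with a median log2 fold change of 0.17. Of 69 initiatory genes tested, 6 were higher (8.70%) and 2 lower (2.90%), with a median of 0.44. With the block the fibrogenic program held 2 higher and 2 lower genes and the initiatory program 2 higher genes. Actn1, Ankrd1, Bcat1 and Tnc were higher members of both programs, of which Bcat1 (edgeR adjusted p = 0.184) and Actn1 lost the call with the block. Bdkrb2, the bradykinin B2 receptor with 0 counts at 18 h, was a lower member of both (edgeR adjusted p = 0.259 with the block). Tnfrsf12a, the receptor of TWEAK, measured 387, 262 and 403 CPM at 6 h and 382, 406 and 371 CPM at 18 h. Thbs1, thrombospondin 1, measured 203, 142 and 314 CPM at 6 h and 335, 214 and 268 CPM at 18 h. Vcan, the proteoglycan versican, measured 0, 7.35 and 34.8 CPM at 6 h and 46.00, 31.2 and 29.2 CPM at 18 h. None of these 3 genes, which the study names, was called, and their log2 fold changes were 0.14 (SE 0.20), 0.31 (SE 0.32) and 1.33 (SE 1.46).

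Metabolic and stress lists held few calls. Of 18 genes of cholesterol synthesis and uptake tested, 1 (5.56%) was called higher, against 1.20% of all genes. With the block 1 was called higher, and DESeq2 called 4 higher. All 18 had a log2 fold change above 0, with a median of 1.26 against 0.05 for all genes. Fdps, an enzyme of the mevalonate pathway, measured 0.889, 8.54 and 0.912 CPM at 6 h and 29.7, 37.8 and 34.4 CPM at 18 h. Sqle, which acts on squalene, measured 0, 4.57 and 8.76 CPM at 6 h and 39.9, 41.9 and 34.6 CPM at 18 h. Neither was called (edgeR adjusted p = 0.198 and 0.330), and their 18 h samples all lay above their 6 h samples. Of 17 glycolysis genes tested, 2 were higher: Ldha, lactate dehydrogenase A, measured 70.5, 79.4 and 46.5 CPM at 6 h and 150.4, 216 and 162 CPM at 18 h. Slc16a1, a lactate transporter, measured 18.1, 19.9 and 18.1 CPM at 6 h and 49.4, 54.1 and 61.5 CPM at 18 h, and both lost the call with the block (edgeR adjusted p = 0.129 and 0.307). Of 13 mitochondrially encoded genes, 12 had a log2 fold change below 0 and 10 had no overlap between the groups, with a median of -0.73, and 0 were called in edgeR, beside 10 at an unadjusted p below 0.05 and 1 call in DESeq2 (mt-Nd4 had an adjusted p of 0.0634 with a log2 fold change of -0.86). The 10 with separate groups had their lower values at 18 h, as did 14.4% of all genes tested.

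Among the lists of protein quality control, 1 of 22 heat shock genes (Hspa8, 1.45) and 1 of 32 proteasome genes (Psmb3, 1.42) were higher, and 1 of 22 endoplasmic reticulum genes (Herpud1, -1.45) was lower. These shares, 4.55%, 3.12% and 4.55%, stand beside 1.20% of all genes called higher and 3.33% called lower. None of the 3 kept its call with the block (edgeR adjusted p = 0.139, 0.255 and 0.109). Of 30 ATF4 targets and tRNA synthetases tested, 1 was called lower and 1 higher, against 3.33% and 1.20% of all genes. Chac1, which degrades glutathione, measured 305, 682 and 563 CPM at 6 h and 77.6, 159 and 100.4 CPM at 18 h, whereas Asns, asparagine synthetase, measured 66.9, 82.6 and 95.8 CPM at 6 h and 185, 134 and 174 CPM at 18 h. Their log2 fold changes were -2.20 (SE 0.39) and 1.00 (SE 0.24), and the former kept its call with the block (edgeR adjusted p = 0.0439 and 0.229). Of the NRF2 list, Nfe2l2, which encodes NRF2 itself, was lower (-1.15) and Taldo1, transaldolase of the pentose phosphate pathway, was higher (1.59), and both lost the call with the block (edgeR adjusted p = 0.195 and 0.133). Of 30 genes of Myc and ribosome biogenesis tested, 0 were called in edgeR and 1 in DESeq2, and 5 had an unadjusted p below 0.05, with a median of 0.12. Ncl, which encodes nucleolin, had a log2 fold change of 0.58. Of 26 lysosomal genes, Scarb2 and Psap were lower, with Scarb2, an integral membrane protein of lysosomes, at 434, 408 and 325 CPM at 6 h and 72.3, 42.4 and 82.7 CPM at 18 h. With the block Psap, a saposin precursor, lost its call (edgeR adjusted p = 0.117) and Scarb2 kept it (0.0764). The plot of the gene lists sets these beside the others.

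**Figure D4:**
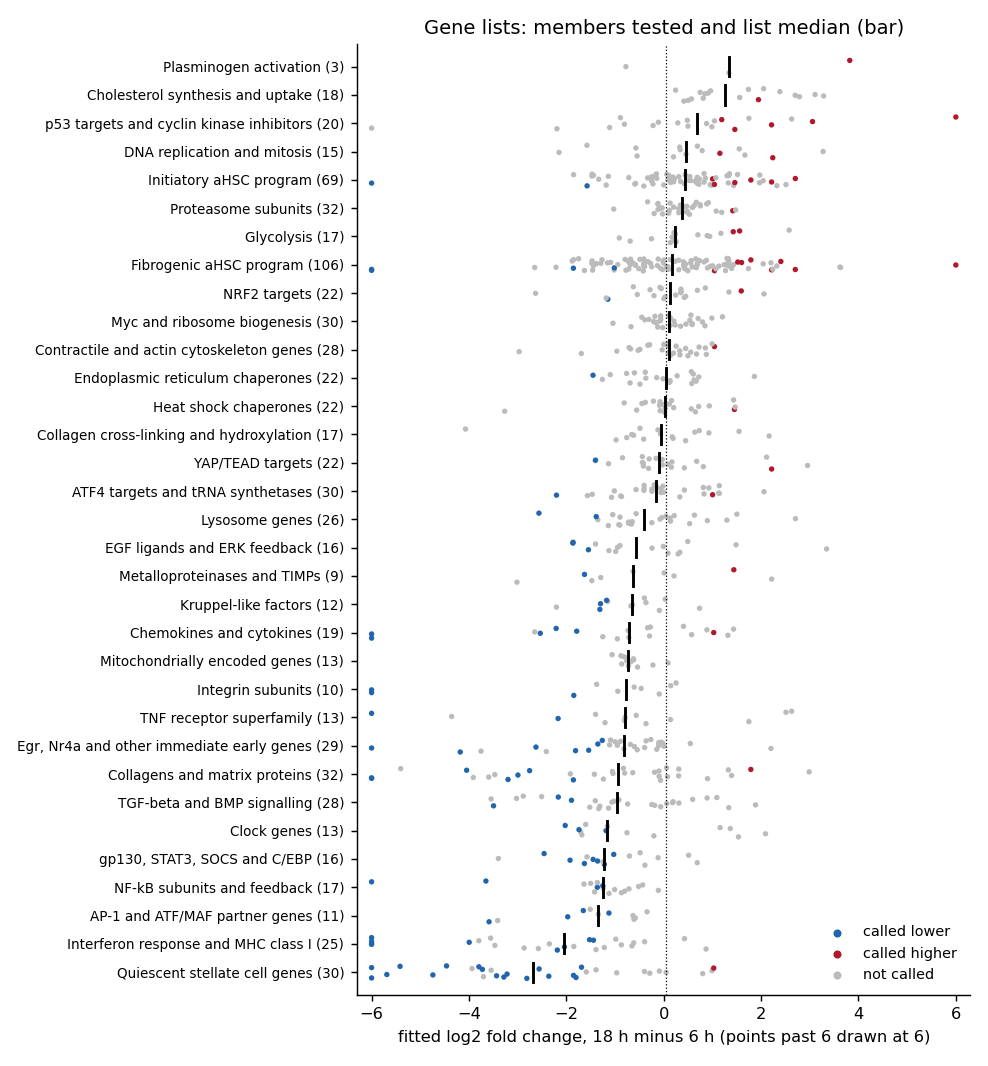
Fitted log2 fold change between 6 h and 18 h (horizontal axis) of the tested members of each gene list (rows, with the number tested in brackets), ordered by list median (black bar); blue points were called lower, red points higher and grey points were not called, and the dotted line is the median of all genes tested, 0.05. Quiescent HSC genes have the lowest median at -2.69, and plasminogen activation, with 3 genes tested, and cholesterol synthesis have the highest.

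Clock genes were examined since culture times 12 h apart fall at different hours of the day. Of 13 tested, 3 (23.1%) were called, each lower, against 3.33% of all genes (list median log2 fold change -1.15). With the block edgeR called 0, beside 5 at an unadjusted p below 0.05, and DESeq2 without it called 5. Rora, a nuclear receptor that drives Arntl, measured 74.4, 85.6 and 98.3 CPM at 6 h and 21.9, 25.1 and 30.3 CPM at 18 h. Nr1d2, one that restrains it, measured 165, 209 and 173 CPM at 6 h and 92.2, 60.3 and 87.95 CPM at 18 h. Bhlhe40, a repressor that also answers to serum and hypoxia, measured 50.1, 42.1 and 81.7 CPM at 6 h and 17.5, 12.8 and 12.5 CPM at 18 h. All 3 genes had no overlap between the groups, with log2 fold changes of -1.74 (SE 0.31), -1.19 (SE 0.24) and -2.02 (SE 0.47, edgeR adjusted p with the block 0.168, 0.199 and 0.269). Dbp, a direct output of the clock, had no count in the 6 samples, and Arntl, Per1 and Per2 were not called.

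The 12 h samples show where in the interval the change fell. In separate edgeR fits of 3 samples against 3, 197 of 10200 genes (1.93%) were called between 6 h and 12 h and 7 of 10083 (0.0694%) between 12 h and 18 h. These steps share samples with the comparison and are given for timing alone. With the block the steps held 51 and 0 calls in edgeR, the latter beside 645 genes at an unadjusted p below 0.05 (688 without the block). At 12 h, 285 of the 340 genes called lower had a mean between those of 6 h and 18 h, and the median gene had completed a share of 0.631 of its log2 change. Of the 122 genes called higher, 103 were in between, with a median share of 0.744. At 24 h the median shares were 1.0 and 0.901. The genes were chosen for their difference between 6 h and 18 h, which by itself favours a 12 h mean in between. The same position was not computed for all genes tested.

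Single genes differed in timing, as the plot of time courses shows. Vcam1 changed by -2.76 on the log2 scale from 6 h to 12 h (edgeR adjusted p = 0.00890) and by -0.89 from 12 h to 18 h (edgeR adjusted p = 0.374). Icam1 changed by -8.70 in the first step (edgeR adjusted p = 0.0150) and was near its floor at both 12 h and 18 h. Junb and Errfi1 had values of -0.67 and -0.55 in the first step and -1.30 and -1.31 in the second, with no call in either step. Ecm1 and Rgs5 were called in both steps, with -1.79 and -1.87 followed by -1.65 and -1.35 (edgeR adjusted p of the second step 0.0628 and 0.0871). Of the genes that rose, Serpinb2 changed by 3.21 in the first step (edgeR adjusted p = 0.0197) and by 0.61 in the second. Cdkn1a and Ccng1 changed by 0.34 and 0.34 in the first step and by 1.12 and 1.87 in the second, again with no call in a single step. Whether the steps of a gene differ from each other was not tested.

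**Figure D5:**
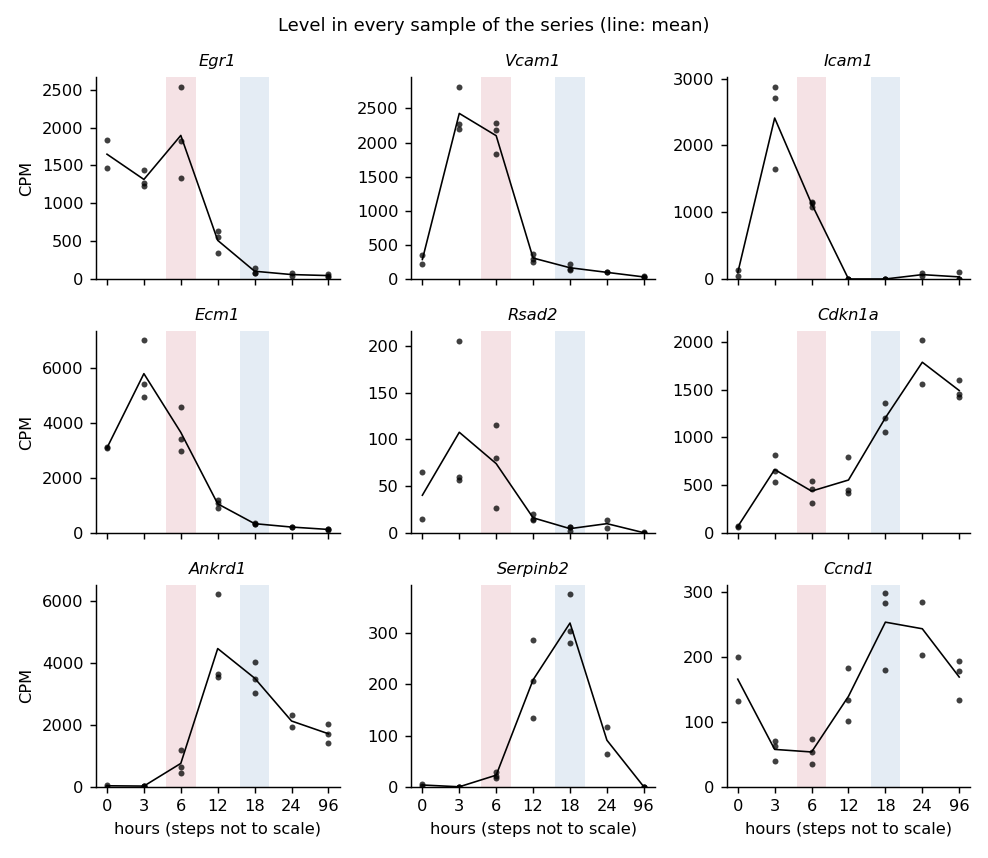
Level in CPM (vertical axes, linear, each from 0) of 9 genes in every sample of the series against hours of culture (horizontal axes, steps not to scale); points are samples and lines join the means, with 6 h shaded red and 18 h shaded blue. Egr1, Vcam1, Icam1, Ecm1 and Rsad2 decline across the shaded interval, and Cdkn1a, Ankrd1, Serpinb2 and Ccnd1 are higher at 18 h.

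Some of the 12 largest falls, counted over called genes averaging 20 CPM or more, are not yet described. Mxra8, a membrane protein known as an alphavirus receptor, measured 128, 146 and 151 CPM at 6 h and 0 CPM in each sample at 18 h, at least 234-fold lower (edgeR adjusted p = 0.00272, 0.0867 with the block), and an antisense gene, Mxra8os, overlaps it. Angptl6, an angiopoietin-like growth factor, Hmcn1, a basement membrane hemicentin, and Msc, a basic helix-loop-helix repressor, were at or near 0 at 18 h: the former pair was at least 138-fold and 68.2-fold lower, and Msc fell from 667 counts to 5 counts over the group. None of these 3 kept its call with the block (edgeR adjusted p = 0.129, 0.208 and 0.199). Among the 12 largest rises, Ddah1, which degrades the nitric oxide synthase inhibitor ADMA, measured 20.7, 11.3 and 22.4 CPM at 6 h and 153, 180.5 and 188 CPM at 18 h. It changed by 3.26 (SE 0.33, edgeR adjusted p = 0.00788, 0.0694 with the block) and was, with Serpinb2, the only gene called higher in every alternative fit, beside 32 called lower. Ercc1, a DNA repair endonuclease subunit that overlaps Cd3eap on the opposite strand, measured 25.5, 59.2 and 48.9 CPM at 6 h and 189.6, 319.7 and 251 CPM at 18 h (log2 fold change 2.50, SE 0.37, edgeR adjusted p = 0.0267, 0.0439 with the block). Glrx, a glutaredoxin, Limk1, a kinase of cofilin, and S100a6, a calcium-binding protein, were higher by 2.47, 3.38 and 2.41, and Gpr176, an orphan receptor without a count at 6 h, was at least 96.4-fold higher. These 4 lost the call with the block (edgeR adjusted p = 0.110, 0.185, 0.158 and 0.158).

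Overlapping gene models on the opposite strand also bear on Cdkn1a (AC167363.2), Jak1 (Raver2), Cebpd (Spidr), Cxcl10 (Art3), Cxcl16 (Zmynd15), Lrat (Rbm46os), Mafk (Tmem184a), Jun (Junos) and B2m (Patl2), and on the same strand on Itga1 (Pelo). How the counting divided reads in these overlaps is not given in the sources used here.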

How the data were processed

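The authors prepared 3′ tag libraries (QuantSeq FWD) from total RNA, each sample representing 2 technical repeats, and deposited whole-number read counts per gene for 55487 Ensembl gene IDs in 19 samples. Per the labels, the reads were processed with STAR and StringTie on mm10; the counting tool, annotation release, versions and strand setting are not given in the sources used here. As each gene is read at its 3′ end, levels were compared between samples and not between genes.

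Groups were taken from the culture time in the labels. TMM factors were computed once over 19 samples, genes were filtered with filterByExpr on the 6 samples, and edgeR's quasi-likelihood test was run with no covariate (R 4.3.3, edgeR 4.0.16, limma 3.58.1). Calls required an adjusted p under 0.1 together with more than a 2-fold change. Log2 fold changes are fitted values with a prior count of 0.125, and for genes with 0 counts in a group a bound against 3 counts per sample is given in their place. These bounds cover counting error only, and a sample can read 0 for a gene that its group expresses. Tables and figures were made with Python 3.11.15, numpy 2.4.6, pandas 2.3.3 and matplotlib 3.10.9. The members of the gene lists, and the question itself, were chosen with earlier results of these data known.

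The genes named were the 12 largest rises and 12 largest falls among called genes that averaged 20 CPM or more and had no overlap between groups (predicted genes, clones and pseudogenes left out), up to 6 called members and the 2 highest members of each list, and genes the study names. Promoters on chromosome 18 were left out. Other members were named after their values were seen. The numbers M1 to M3 recur at each time, each with the same isolation date, and the labels do not say what M stands for, so the number was used as a block in an alternative fit only. The correlation of deviations from the group means was 0.058, -0.015 and -0.015 for samples of the same number and between -0.046 and 0.069 for the others. DESeq2 1.42.0, other scalings and filters, an isolation date term and samples left out were the other alternatives. On simulated counts of 9191 genes for 18 h against 6 h, 25 of 90 genes changed by a log2 of 2 and 59 of 93 changed by a log2 of 4 were called, beside 11 of 9008 unchanged genes. A few items of the lists are not reported here.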

Additional observations from a re-analysis of the deposited data

How the results depend on the processing

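The number of genes called depended on the fit. Of the 462 called genes 0 changed sign in any alternative, but the alternatives reuse the samples on which these genes were chosen. DESeq2 called 1164 genes, 398 higher and 766 lower, with 147 of the genes that had been higher at 3 h among the lower ones. Scaling by library totals gave 219 higher genes, and medians of -0.69 for the early response genes and -0.45 for the genes higher at 3 h. With the isolation date as a covariate 290 genes were called, 56 of them higher. An adjusted p below 0.05 left 232 genes, 42 higher and 190 lower, with 55 of the genes higher at 3 h, and taking the genes higher at 3 h at that threshold moved their median to -0.71. A minimum of 20 CPM, chosen after seeing the data, moved that median to -0.59. With both samples of M2 left out, 51 genes were called, 3 higher and 48 lower, among them 2 early response genes and 8 genes higher at 3 h, whose median was -0.60. No filter on low counts, all 19 samples in one fit, thinning to the smallest total and TMM on the 6 samples gave 384, 626, 457 and 460 calls. The causes were not tested.

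Using the M number as a replicate block left 122 calls, 15 higher and 107 lower, including 6 early response genes and 35 genes higher at 3 h. The block left 51 and 0 calls in the steps to 12 h and 18 h. Of 107 named called genes, 44 kept the call under the block.

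Leaving out 1 sample at a time gave 150 to 261 calls, 20 to 94 higher, 128 to 225 lower, 8 to 14 early response genes, 32 to 65 genes higher at 3 h, and medians of -0.92 to -0.74 and -0.66 to -0.59. Of the genes not called, Col1a1 turned to 0.11 with library totals, to 0.01 without the 6 h sample of M3 and to 0.0697 without the 18 h sample of M1, and ranged from -0.213 to 0.0697 with 1 sample left out. Lox turned to -0.167 without the 18 h sample of M2, in a range up to 1.36. Tnfrsf12a turned to -0.0695 without M2 and to -0.0323 without its 6 h sample alone, in a range up to 0.251. With 3 samples a time and at least 3376702 counts each, 25 of 90 genes simulated with a log2 change of 2 were called.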

Other observations

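Between 12 h and 18 h, 7 genes were called in edgeR's quasi-likelihood test, and they were named after their values were seen. Fgf2, a growth factor for fibroblasts and endothelium, had means of 4.76 CPM at 12 h and 107 CPM at 18 h, and M6pr, a receptor that sorts lysosomal enzymes, had means of 33.5 and 274 CPM. The predicted gene Gm42688 had no count at 12 h and a mean of 68.7 CPM at 18 h. Gdf15, a stress-induced cytokine, had means of 523 and 196 CPM, with a log2 fold change of -1.42. Rgs5 and Ecm1, genes of quiescent HSCs, and Angptl6, at 0 CPM at 18 h, were the other lower genes.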
